A study of Sus scrofa with 36 samples.

Results

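The genes described here encode the machinery that copies DNA and the kinases, cyclins and inhibitors that time cell division. They were taken by symbol from an RNA-Seq table of subcutaneous adipose tissue of 36 pigs: the minichromosome maintenance (MCM) and origin recognition (ORC) genes, genes named CDC or CDK with a number, cyclins A, B, D and E, the catalytic and accessory subunits of DNA polymerases alpha, delta and epsilon, replication factor C (RFC), PCNA, the retinoblastoma family and the CIP/KIP inhibitors. This rule found 56 of the 12253 genes in the table. The pigs belonged to an F2 intercross of Göttingen minipig boars and Duroc sows and were chosen on the Obesity Index, an aggregate genetic value for obesity: 12 lean pigs with a low index (7 males and 5 females), 12 intermediate pigs around the mean (6 males and 6 females) and 12 obese pigs with a high index (6 males and 6 females). Each pig is 1 sample. According to the study's methods full sibs occurred within groups and the pigs were slaughtered at about the same weight, so that age at slaughter differed between the groups and cannot be told apart from group.

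Before DNA is copied, the origin recognition complex loads the MCM helicase onto chromatin, CDC7 and cyclin-dependent kinases switch it on together with CDC45, and the polymerases with the RFC clamp loader and its clamp follow. Cells that leave the cycle keep little of the helicase and of the mitotic genes, whereas many other genes of the same name families work in transcription, splicing or signalling and are used by resting cells. Mature adipocytes do not divide. In adipose tissue the dividing cells are mostly precursors, immune cells and endothelial cells. In bulk tissue a lower share of a cell type and less RNA per cell cannot be told apart.

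Recovered reads per pig ranged from 8735839 to 11755925. Levels are given below as normalised read counts, which are the recovered reads divided by the size factor of the pig, and differences are given on the log2 scale of the deposited values. Of the 86 symbols in the pig gene name table that the rule takes, 30 had no row under that symbol, among them CDK1, CDK2, CDK6, PCNA, MCM6, MCM7, ORC1, CDC6, the cyclins A2, B1 and D1 to D3, RBL2 and the 3 CIP/KIP inhibitors. A symbol was found for 8320 of the 12253 genes, so these genes may be among the rest, and they were not analysed here. The tissue label was checked with PLIN1, the coat protein of the fat droplet, which had 11350 normalised read counts or more in every pig.

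None of the 56 genes differed between lean and obese pigs after Benjamini-Hochberg correction with limma. The median difference of the 56 genes was -0.03 (log2, obese minus lean) against -0.01 for all genes, and 26 of the 56 were above 0. Over all genes 0.0408% passed this test. At an unadjusted p under 0.05 there were 4 of the 56 genes (7.14%), all lower in obese pigs, against 14.7% of all genes. That all were lower depended on the scaling. With values scaled by the whole size factor of each pig, POLD4 (0.245 ± 0.106) and CDC73 (0.20 ± 0.09) were also under this threshold. Both were higher in obese pigs (adjusted p = 0.247 and 0.283 with limma). No gene of the 56 separated all obese from all lean pigs, and neither did any gene of the table (0%).

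The 4 genes were ORC3 and ORC4 (subunits of the origin recognition complex), CDC20 (an activator of the anaphase-promoting complex) and POLD2 (a subunit of polymerase delta). ORC3 ranged from 207 to 285 normalised read counts in lean pigs with a median of 248, and from 176 to 316 in obese pigs with a median of 213. Most obese pigs were below the lean median, but the ranges overlapped. The difference was -0.22 ± 0.08 (SE; adjusted p = 0.192 with limma).

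CDC20 ranged from 149 to 297 in lean pigs (median 252) and from 127 to 252 in obese pigs (median 198), a difference of -0.35 ± 0.14 with an adjusted p of 0.223. POLD2 ranged from 121 to 257 in lean pigs (median 214) and from 86.8 to 244 in obese pigs (median 156), a difference of -0.35 ± 0.145 with an adjusted p of 0.235. ORC4 ranged from 502 to 688 in lean pigs (median 591) and from 419 to 614 in obese pigs (median 536), a difference of -0.185 ± 0.08 with an adjusted p of 0.256. In each of these genes the obese pigs lay lower on average and the ranges of the groups overlapped. The difference of ORC4 was -0.375 ± 0.12 in females alone and -0.02 ± 0.10 in males alone, and that of POLD2 was -0.09 ± 0.22 in females alone and -0.57 ± 0.18 in males alone. Neither difference between the sexes passed limma's interaction test (adjusted p = 0.323 and 0.480). ORC3 and CDC20 were below 0 in both sexes. Markers of other cells also differed between these groups: all 12 measured macrophage markers were above 0 (median 0.80, 10 with an unadjusted p under 0.05) and all 6 endothelial markers below 0 (median -0.31, 4 with an unadjusted p under 0.05), and 7 of the 8 T or NK cell markers were above 0 (median 0.63, 2 with an unadjusted p under 0.05), none past the correction. Their part in the 4 differences was not tested.

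**Figure D1:**
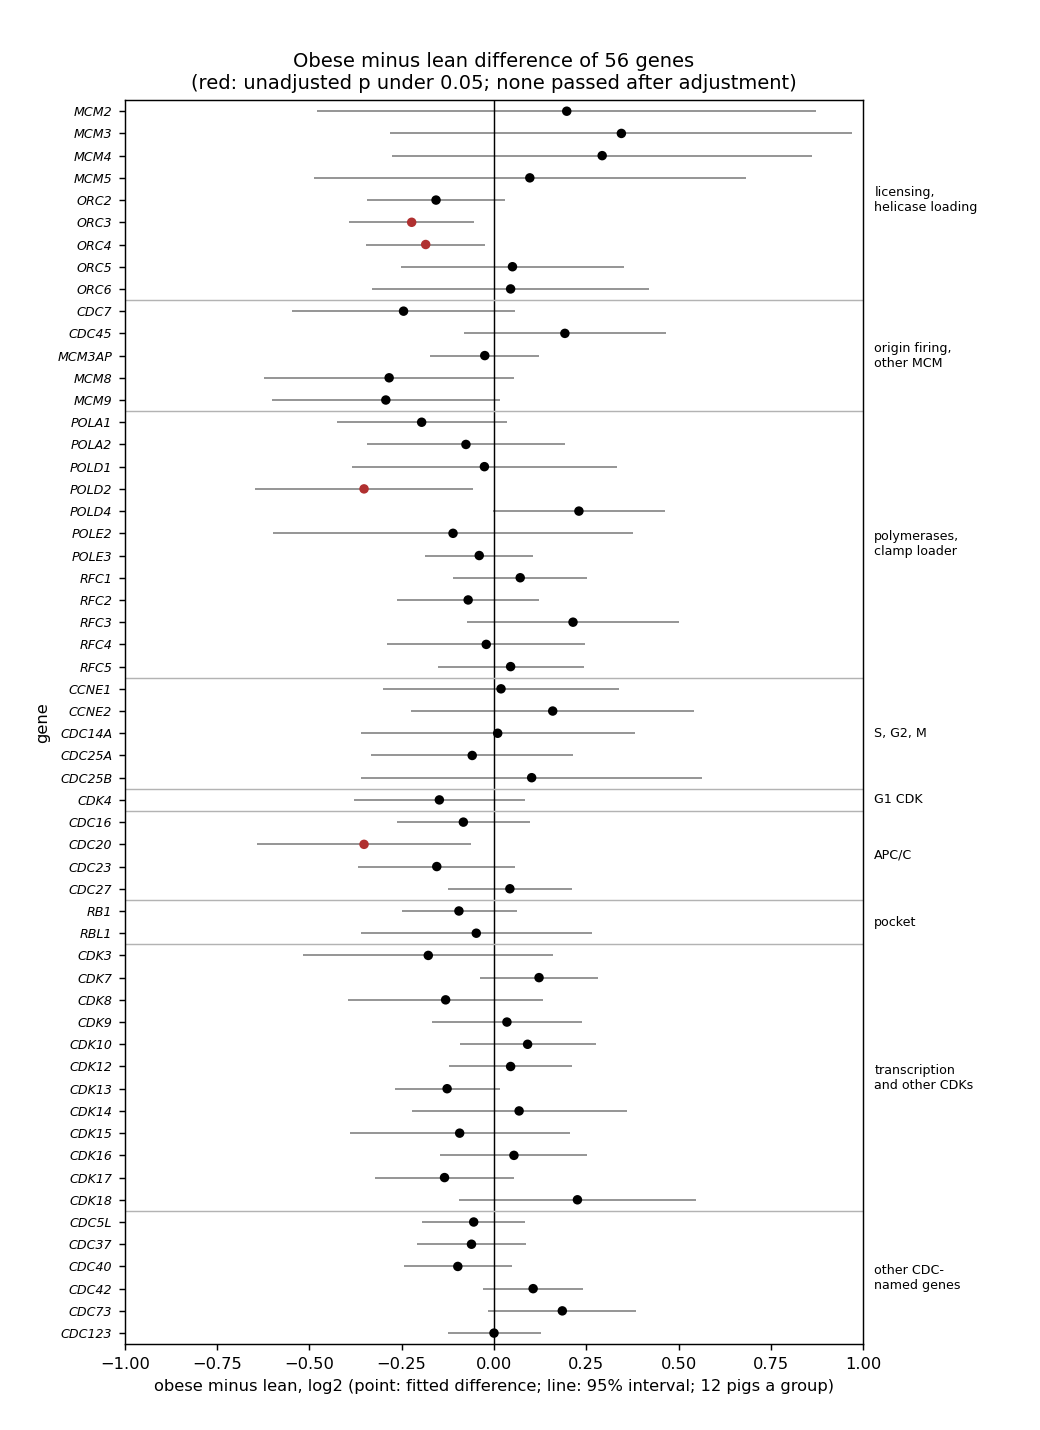
Fitted obese minus lean differences of the 56 genes on the log2 scale (x axis) with their 95% intervals, ordered by role (y axis), for 12 lean and 12 obese pigs. The spread behind the intervals comes from all 36 pigs, the 12 intermediate pigs included. Red points mark the 4 genes with an unadjusted p under 0.05, all of them below 0; the intervals of MCM2 to MCM5 are the widest.

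Between intermediate and lean pigs 0 of the 56 genes passed limma's test, against 0% of all genes, and 5 (8.93%) had an unadjusted p under 0.05, against 12.5% of all genes. These were ORC4 (-0.23 ± 0.08), CDK4 (-0.32 ± 0.11), ORC3 (-0.19 ± 0.08), CDK14 (0.325 ± 0.14) and CDK15 (-0.32 ± 0.15), with adjusted p-values from 0.267 to 0.374. Between obese and intermediate pigs 0 of the 56 passed (0% of all genes), and only CDK17 had an unadjusted p under 0.05 (-0.22 ± 0.09, adjusted p = 0.989 with limma), which is 1.79% of the 56 genes against 4.28% of all genes. A linear trend over the 3 groups was passed by 0 of the 56 genes (0.0245% of all genes), and 4 (7.14%) had an unadjusted p under 0.05 against 14.5%. With voom weights on the recovered reads no gene of the 56 passed any of these 4 comparisons either. These comparisons share pigs and are not independent of each other.

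The helicase genes MCM2, MCM3, MCM4 and MCM5 varied more between pigs than any others of the 56. MCM2 ranged from 49.6 to 216 normalised read counts in lean pigs (median 98.1), from 46.7 to 843 in intermediate pigs (median 71.2) and from 57.8 to 278 in obese pigs (median 121). MCM3 ranged from 42.6 to 199 (median 95.9), from 68.5 to 990 (median 87.7) and from 71.6 to 248 (median 134) in the same order. The lean and obese pigs overlapped almost entirely, and 1 intermediate pig was far above all others.

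MCM4 ranged from 47.7 to 235 in lean pigs (median 113), from 71.8 to 928 in intermediate pigs (median 118) and from 94.2 to 241 in obese pigs (median 138). MCM5 was at 10.15 to 38.7 (median 26.6), 9.79 to 116 (median 17.9) and 13.8 to 49.1 (median 22.1). The obese minus lean differences were 0.20 ± 0.33 for MCM2, 0.345 ± 0.31 for MCM3, 0.29 ± 0.28 for MCM4 and 0.10 ± 0.29 for MCM5. With 1 pig left out they ran from 0.08 to 0.30 for MCM2, lowest without obese replicate 2, and fell to 0.21 for MCM3 and 0.16 for MCM4 without lean replicate 3. For MCM5 they ran from -0.009 to 0.181, with a change of sign in 2 of the 36 fits. MCM2 was also at 0.09 without lean replicate 3 or lean replicate 12 and at 0.30 without lean replicate 10 or obese replicate 7. The interval of MCM3, from -0.28 to 0.97, was among the widest of the 56 genes. In females alone the differences were 0.74 ± 0.58 for MCM2, 0.86 ± 0.54 for MCM3, 0.65 ± 0.49 for MCM4 and 0.71 ± 0.54 for MCM5. In males alone they were -0.21 ± 0.27, -0.045 ± 0.255, 0.04 ± 0.22 and -0.39 ± 0.185 in the same order. None of the 4 genes passed limma's test of the interaction with sex (adjusted p from 0.397 to 0.638). The spread in females alone and in that test included an intermediate female far above all other pigs. The test could therefore miss a difference between the sexes. The SEs over both sexes include the intermediate pig that stood apart and were smaller without it. The differences were then 0.21 ± 0.24 for MCM2, 0.36 ± 0.22 for MCM3, 0.31 ± 0.20 for MCM4 and 0.11 ± 0.23 for MCM5. The adjusted p of MCM3 with limma was then 0.440.

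**Figure D2:**
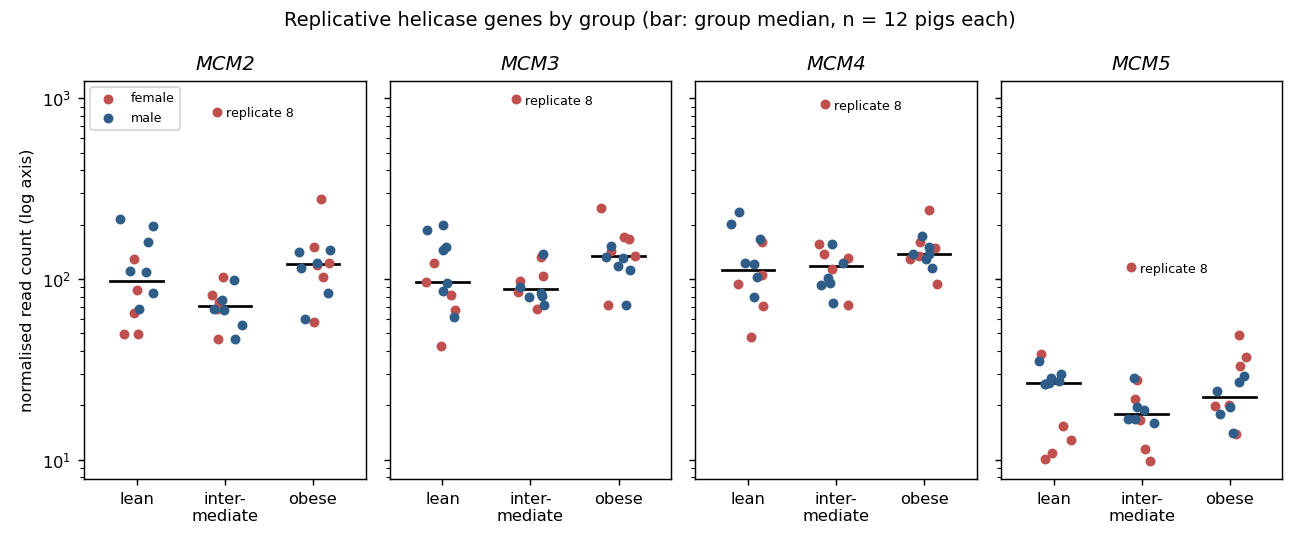
Normalised read counts (log axis) of MCM2 to MCM5 in the lean, intermediate and obese pigs, with 1 point per pig, coloured by sex, and a bar at the group median (n = 12). Intermediate replicate 8, a female, lies above every other pig in all 4 genes; otherwise the groups overlap.

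That pig was intermediate replicate 8, a female. Its library was not unusual in size, but its median correlation with the other 35 pigs over all genes was 0.938, among the 4 lowest in a range of 0.93 to 0.964. It also had the highest value of all pigs in 707 genes, among the 4 largest such counts. Its MCM2 was 843 against a median of 86.9 and a maximum of 278 in the other 35 pigs, which is 9.695-fold above their median. MCM3 was 9.54-fold, MCM4 7.22-fold and MCM5 5.73-fold above the median of the others. The 4 helicase genes were thus raised together in this pig, each to at least 2.36 times the highest value of any other pig.

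Of the 56 genes, 18 (32.1%) had their highest value in this pig, against 5.77% of all genes in the table, and no other pig held the highest value of more than 5 of the 56. A level at least 2-fold above the median of the other pigs was found for 12 of the 56 (21.4%), against 3.73% of all genes. Since the pig was singled out for these values, the counts are a description and no test was made. After the helicase came POLE2, an accessory subunit of polymerase epsilon (107, 4.47-fold above the median of the others), CDC25B, a phosphatase that activates cyclin-dependent kinases at mitosis (1013, 4.01-fold), and POLD1, the catalytic subunit of polymerase delta (415, 3.28-fold). RBL1 (p107, 2.25-fold), POLA2 (2.24-fold), RFC3 (2.14-fold), RFC4 (2.11-fold) and CCNE2 (cyclin E2, 2.07-fold) followed. All of these values were above those of every other pig.

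Other genes of the same families did not stand out there. ORC2, ORC3 and ORC4 were at 1.19-fold, 1.07-fold and 0.903-fold the median of the other pigs. CDC20 was at 1.13-fold and the anaphase-promoting complex subunits CDC16, CDC23 and CDC27 at 1.155-fold to 1.178-fold. RB1 (0.841-fold) and CDK4 (0.797-fold) were among the 7 lowest of the 36 pigs. CDK10 and CDK12, kinases that act in transcription, had their lowest value of all pigs in this animal (449 and 431 normalised read counts). The highest genes were thus those of the helicase and of DNA synthesis together with CDC25B. Of the origin recognition complex only ORC6 (1.865-fold) had its highest value there, and none of the 12 transcription and other CDKs did, 5 of which were among the 7 lowest.

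**Figure D3:**
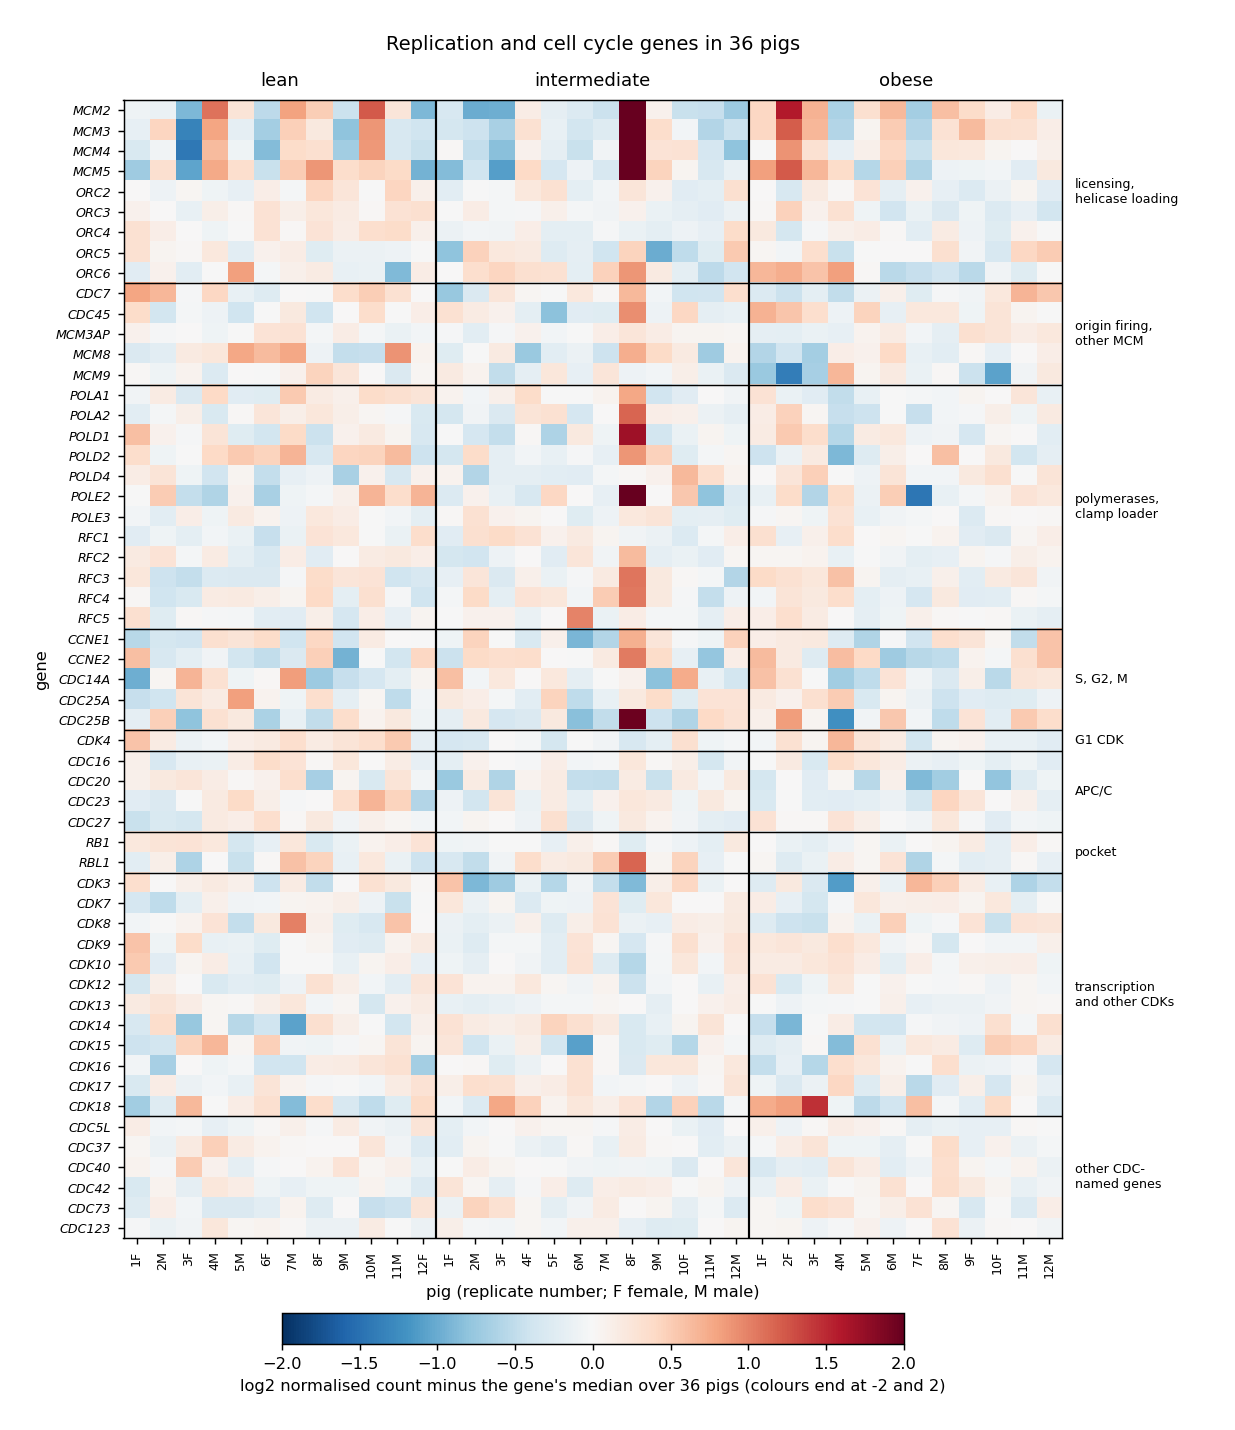
Each gene's log2 normalised count minus its median over the 36 pigs (colour), for the 56 genes ordered by role (rows) in the lean, intermediate and obese pigs (columns; F female, M male). The column of intermediate replicate 8 is red for the helicase and many polymerase and clamp loader genes, MCM9 is blue in several obese females, and the CDC-named genes of other function are pale throughout.

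Cell division genes outside the rule were high in the same pig. Of 41 measured genes of DNA replication and mitosis on a separate list, 28 had their highest value there and 24 were at least 2-fold above the median of the other pigs, with a median of 2.97-fold. UHRF1, which maintains DNA methylation at replication, was at 1071 (11.6-fold), KIF20A, a motor of cytokinesis, at 669 (10.4-fold), KIF23 at 599 (9.57-fold) and TOP2A, the topoisomerase of dividing cells, at 1397 (9.37-fold). Of the inhibitors and p53 targets, 2 of 13 were highest there: CDKN3 (3.255-fold) and CDKN2C (1.76-fold). These genes were named after their values were seen. The high genes thus covered replication as well as mitosis.

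Markers of other cells also differed in this pig. The macrophage list (12 of 17 markers measured, none at 0) summed to 17080 there, against 3849 to 18860 in the lean group, 5986 to 20480 in the intermediate group and 8210 to 19270 in the obese group. Of its 12 markers 11 were above the median of the other pigs, and the median over the list was 1.985-fold. MSR1 (3.35-fold) and FCER1G (2.27-fold) had their highest value in this pig, and C1QA, the exception, its lowest (0.323-fold). The adipocyte list (8 of 16 markers measured, none at 0) summed to 44990, the lowest of the intermediate pigs, which ranged up to 104600. Lean pigs ranged from 34260 to 92470 and obese pigs from 55360 to 112600. In this pig 6 of the 8 adipocyte genes were among the 7 lowest of the pigs. The fibroblast or progenitor list (9 of 13 measured) had a median of 0.854-fold and went both ways, from PI16 (0.269-fold) and DCN (0.395-fold, its lowest of all pigs) to PDGFRB (1.21-fold), DPP4 (1.46-fold) and PDGFRA (1.496-fold). Of the 8 T or NK cell markers (median 1.25-fold) CCL5 was at 3.83-fold and NKG7 at 3.14-fold, its highest of all pigs, whereas CD247 was at its lowest (0.484-fold). The 6 endothelial markers had a median of 1.203-fold. The part of these cells in the high replication genes was not tested.

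Among the genes that start replication at loaded origins, CDC45, the helicase partner, and CDC7, the kinase that triggers firing, did not pass the test in any group comparison. CDC45 averaged 169 ± 30.8 in the lean group, 176 ± 57.2 in the intermediate group and 197 ± 38.9 in the obese group (SD, n = 12), and CDC7 105 ± 24.9, 88.8 ± 23.2 and 88.9 ± 23.9. The obese minus lean differences were 0.19 ± 0.135 for CDC45 and -0.245 ± 0.15 for CDC7 (adjusted p = 0.529 and 0.457 with limma). Without replicate 8 the intermediate pigs averaged 162.5 ± 35.5 for CDC45, below the lean group. MCM3AP, a nuclear export factor that is not a subunit of the helicase, was steady at 1162 ± 111, 1163 ± 91.1 and 1159 ± 156.5. Of the ORC subunits, ORC5 and ORC6 differed between obese and lean pigs by 0.05 ± 0.15 and 0.045 ± 0.185, less than ORC3 and ORC4 above. ORC5 varied most in the intermediate pigs, from 43.4 to 123, against 72.3 to 106 in lean pigs.

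MCM8 and MCM9, which form a helicase of homologous recombination, were measured separately from the replicative helicase. MCM8 was at 102 ± 35.7 in the lean group, 85.3 ± 25.9 in the intermediate group and 81.4 ± 17.2 in the obese group, a difference of -0.28 ± 0.17 between obese and lean. MCM9 was at 43.65 ± 6.15, 41.6 ± 6.22 and 37.7 ± 14.4, a difference of -0.29 ± 0.15 (adjusted p = 0.369 with limma). The SD of MCM9 was largest in the obese pigs, where the sexes lay apart.

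In obese females MCM9 ranged from 16.4 to 38.95 with a median of 26.2, and in obese males from 40.5 to 67.8 with a median of 46.2. In lean females it ranged from 42.5 to 58.1 with a median of 43.7, and in lean males from 34.95 to 50.3 with a median of 42.7. Every obese female was below every obese male and below every lean female, whereas obese and lean males overlapped. MCM9 was the only one of the 56 genes with either separation in females, against 2.21% of all genes for obese females and males and 2.55% for obese and lean females. Obese and lean males were separated in 0 of the 56 genes and in 0.286% of all genes.

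The obese minus lean difference of MCM9 was -0.90 ± 0.195 in females alone and 0.24 ± 0.15 in males alone. The difference between these effects was 1.14 ± 0.23 (males minus females, 95% interval 0.66 to 1.61), which missed the threshold after correction over all genes (adjusted p = 0.0627 with limma). Over the 56 genes, 0 passed the interaction test (0.00816% of all genes) and 4 (7.14%) had an unadjusted p under 0.05, against 12.9% of all genes. The other 3 were CDC40, ORC4 and CDC5L, with adjusted p-values from 0.284 to 0.349. The adjusted p of MCM9 lay between 0.0309 and 0.168 when each pig was left out in turn, and was 0.0498 without the intensity trend. Cell type markers also moved in this interaction: 7 of the 8 T or NK cell markers were below 0 (median -1.14, 2 with an unadjusted p under 0.05), 8 of the 9 fibroblast or progenitor markers (median 0.49), 10 of the 12 macrophage markers (median 0.25) and all 6 endothelial markers (median 0.24) were above 0, and 7 of the 8 adipocyte markers were below 0 (median -0.32), against a median of 0.09 over all genes, and none passed the correction. Their part in the difference of MCM9 was not tested.

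The polymerase and clamp loader genes spread around 0 in the comparison of obese with lean pigs, with 4 of 12 above 0 and a median of -0.03. POLD4, the smallest subunit of polymerase delta, was the highest of them. It ranged from 348 to 656 in lean pigs (median 511), from 363 to 856 in intermediate pigs (median 545) and from 509 to 760 in obese pigs (median 586), and no obese pig was in the lower part of the lean range. The difference was 0.23 ± 0.115 (adjusted p = 0.353 with limma).

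POLA1 and POLA2, of the polymerase that starts each strand, differed by -0.20 ± 0.11 and -0.08 ± 0.13. POLD1 differed by -0.03 ± 0.18 and POLE2 by -0.11 ± 0.24, both with wide intervals. POLE3, which is also a histone-fold protein of chromatin remodelling complexes, was steady at 789 ± 77.8 in lean and 775.5 ± 72.9 in obese pigs. The 5 clamp loader genes differed by -0.07 for RFC2 to 0.21 for RFC3. RFC5 had 1 high value of 1429 in an intermediate male, while the other 35 pigs lay between 570 and 905.

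Of the cyclins and phosphatases of S phase and mitosis, cyclin E1 (CCNE1), cyclin E2 (CCNE2), CDC14A, CDC25A and CDC25B were measured. The 5 genes differed between obese and lean pigs by -0.06 to 0.16, with a median of 0.02. CDK4, the kinase of G1, was the only measured gene of its list. It averaged 67.5 ± 11.0 in the lean group, 54.0 ± 7.70 in the intermediate group and 61.5 ± 12.4 in the obese group, so the lowest group was the intermediate one. RB1, the brake on cell cycle entry that CDK4 phosphorylates, averaged 465 ± 71.0, 428 ± 37.8 and 435 ± 36.45, and its relative RBL1 96.3 ± 24.55, 113 ± 39.1 (103 ± 21.8 without replicate 8) and 92.1 ± 13.8. The obese minus lean differences were -0.15 ± 0.11 for CDK4, -0.095 ± 0.08 for RB1 and -0.05 ± 0.155 for RBL1, none of which passed the test.

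The CDK genes of transcription and other roles made up 12 of the 56. CDK3 acts at the exit from rest, and CDK7 also activates the kinases of the cell cycle. CDK7, CDK9, CDK12 and CDK13 phosphorylate RNA polymerase II, and CDK8 belongs to the Mediator complex. Between obese and lean pigs they ranged from -0.18 for CDK3 to 0.23 for CDK18, with a median of 0.04. CDK13 differed by -0.13 ± 0.07, with lean pigs from 469 to 714 and obese pigs from 531 to 638. The 6 CDC-named genes of other function, including the small GTPase CDC42, the HSP90 partner CDC37, the splicing factors CDC5L and CDC40 and the transcription elongation factor CDC73, ranged from -0.10 to 0.185, the value of CDC73 (± 0.10).

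Of the 56 genes, CDK18, a kinase of the PCTAIRE family, was the only one to pass the test between the sexes. It ranged from 51.1 to 227 in the 17 females (median 107) and from 45.3 to 96.9 in the 19 males (median 69.1), so males lacked the upper part of the female range. The difference was -0.625 ± 0.13 (males minus females, 95% interval -0.89 to -0.36, adjusted p = 0.00625 with limma), or 1.54-fold lower in males. Of the 56 genes 1 (1.79%) passed this test, against 2.19% of all genes, and 2 (3.57%) had an unadjusted p under 0.05, against 18.3% of all genes. The other was CDK16, of the same kinase family, which was higher in males (0.21 ± 0.08, adjusted p = 0.143 with limma).

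Within the groups CDK18 averaged 99.0 ± 28.7 in lean females and 68.9 ± 15.1 in lean males, 106 ± 22.3 and 74.4 ± 17.3 in intermediate pigs, and 135.5 ± 52.0 and 71.6 ± 10.18 in obese pigs. Females were thus higher on average in each group, and the ranges of the sexes overlapped in each. The adjusted p stayed between 0.000839 and 0.0147 when each pig was left out in turn. Adipocyte markers moved the same way: 6 of the 8 measured had an unadjusted p under 0.05 and were lower in males, and 2 of them passed the correction. Of the T or NK cell markers 7 of 8 were lower in males with an unadjusted p under 0.05, 1 of them past the correction. The fibroblast or progenitor markers went both ways. Of these 9 markers 5 were higher and 1 was lower at that threshold, and 2 of the higher ones passed the correction. All 12 macrophage markers were below 0 (median -0.33, 4 with an unadjusted p under 0.05, none past the correction).

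The level of CDK18 followed the adipocyte markers between pigs. After group and sex were removed, CDK18 and the adipocyte score had a Pearson's r of 0.655 and a Spearman's rho of 0.682 over 36 pigs (permutation p = 2e-05 and 3e-05, adjusted p = 0.00224 and 0.0028 over 112 relations). An r at least as far from 0 was found for 1 of the 56 genes (1.79%) and for 0.678% of all genes outside the marker list. Without the 2 pigs farthest from the median score r was 0.681. Within lean, intermediate and obese pigs r was 0.796, 0.479 and 0.682, and within females and males 0.748 and 0.487. The part of adipocyte number in the sex difference of CDK18 was not tested.

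POLD4 followed the macrophage markers. Its r with the macrophage score was 0.602 and its rho 0.637 (permutation p = 0.00011 and 5e-05, adjusted p = 0.00616 and 0.0028), r was 0.515 without the 2 farthest pigs, and 0.641, 0.472 and 0.797 within the lean, intermediate and obese pigs. Within females r was 0.389 and within males 0.744. An r at least as far from 0 was found for 4.84% of all genes outside the marker list and for 1.79% of the 56, a share below that of all genes. All 12 macrophage markers were higher in obese than lean pigs (median 0.80), 10 of them with an unadjusted p under 0.05 and 0 after correction, beside the difference of 0.23 of POLD4. The part of macrophages in that difference was not tested. No other of the 112 relations passed the correction. MCM2 to MCM5 passed with neither score, and the r of MCM4 with the adipocyte score went from -0.426 to -0.192 without intermediate replicate 8. With the macrophage score the r of MCM2 to MCM5 was 0.205, 0.341, 0.376 and 0.282. Without that pig it was 0.158, 0.359, 0.411 and 0.259 in the same order.

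**Figure D4:**
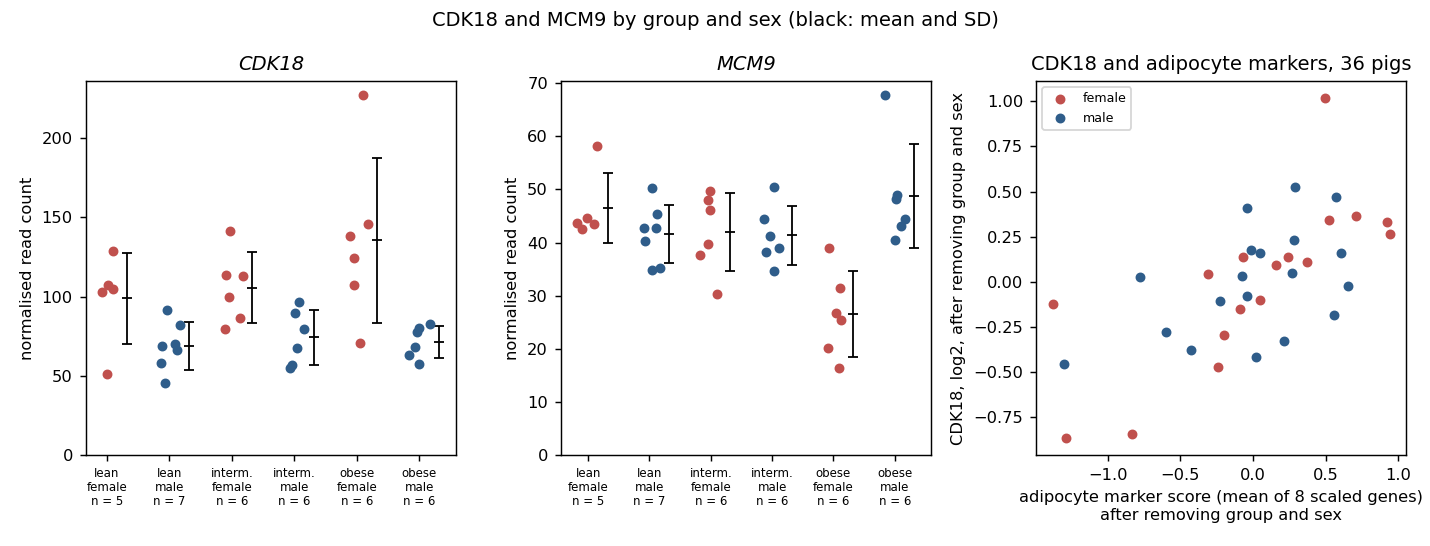
Normalised read counts of CDK18 (left) and MCM9 (middle) in females and males of the 3 groups, with 1 point per pig and the mean and SD in black, and CDK18 against the adipocyte marker score after group and sex were removed (right; 36 pigs). CDK18 is higher on average in females of each group, the 6 obese females are below the 6 obese males in MCM9, and CDK18 increases with the score (r = 0.655).

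The spread between pigs was widest for the helicase genes. The residual SD after group and sex was 0.85 (log2) for MCM2, 0.79 for MCM3, 0.73 for MCM5, 0.72 for MCM4 and 0.60 for POLE2, against a median of 0.33 over all genes. These SDs were high within the table, that of MCM2 above 95.6% of all genes. Without intermediate replicate 8 they fell to 0.605, 0.55, 0.565, 0.50 and 0.47, and were still the 5 largest of the 56. That of MCM2 was then above 86.9% of all genes and that of POLE2 above 74.8%. The smallest were 0.13 for CDC123, 0.15 for CDC42, 0.16 for CDC5L and CDK13 and 0.16 for CDC40. The 6 CDC-named genes of other function had a median SD of 0.16, the anaphase-promoting complex genes 0.23, the transcription and other CDKs 0.24, the polymerases and clamp loader 0.305, the origin firing genes 0.36, the S phase and mitosis genes 0.45 and the licensing genes 0.46. No test was made between the lists, and most of their ranges overlapped. Within the licensing genes ORC2, ORC3 and ORC4 had SDs of 0.19 to 0.20, far below those of MCM2 to MCM5.

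MCM2 to MCM5 varied together. Their 6 pairs had r of 0.824 to 0.959 (median 0.888) over 36 pigs after group and sex were removed, and 0.678 to 0.912 (median 0.788) without intermediate replicate 8. The median was 0.738 within lean pigs, 0.844 within obese pigs and 0.794 within the intermediate pigs without replicate 8. All 1540 pairs of the 56 genes had a median r of 0.108, which was 0.1 without that pig and 0.032 when counts were scaled by the whole size factor. All genes share the scaling of a pig, and genes are not independent replicates, so these values are a description.

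Beyond the helicase, RBL1 (mean r with MCM2 to MCM5 of 0.516 without intermediate replicate 8), RFC4 (0.493) and POLA2 (0.486) were closest to it, and the 12 polymerase and clamp loader genes had a median of 0.318. The 5 measured ORC subunits had a median of 0.006, the transcription and other CDKs -0.019 and all genes 0.058. Of the 41 proliferation genes outside the rule the median was 0.311, with UHRF1 (0.861) and E2F1 (0.758), the factor that activates replication genes, at the top. CDC20 had 0.134. The strongest pair without MCM2 to MCM5 was CDK9 with CDK10 (r = 0.779, and 0.759 without that pig).

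**Figure D5:**
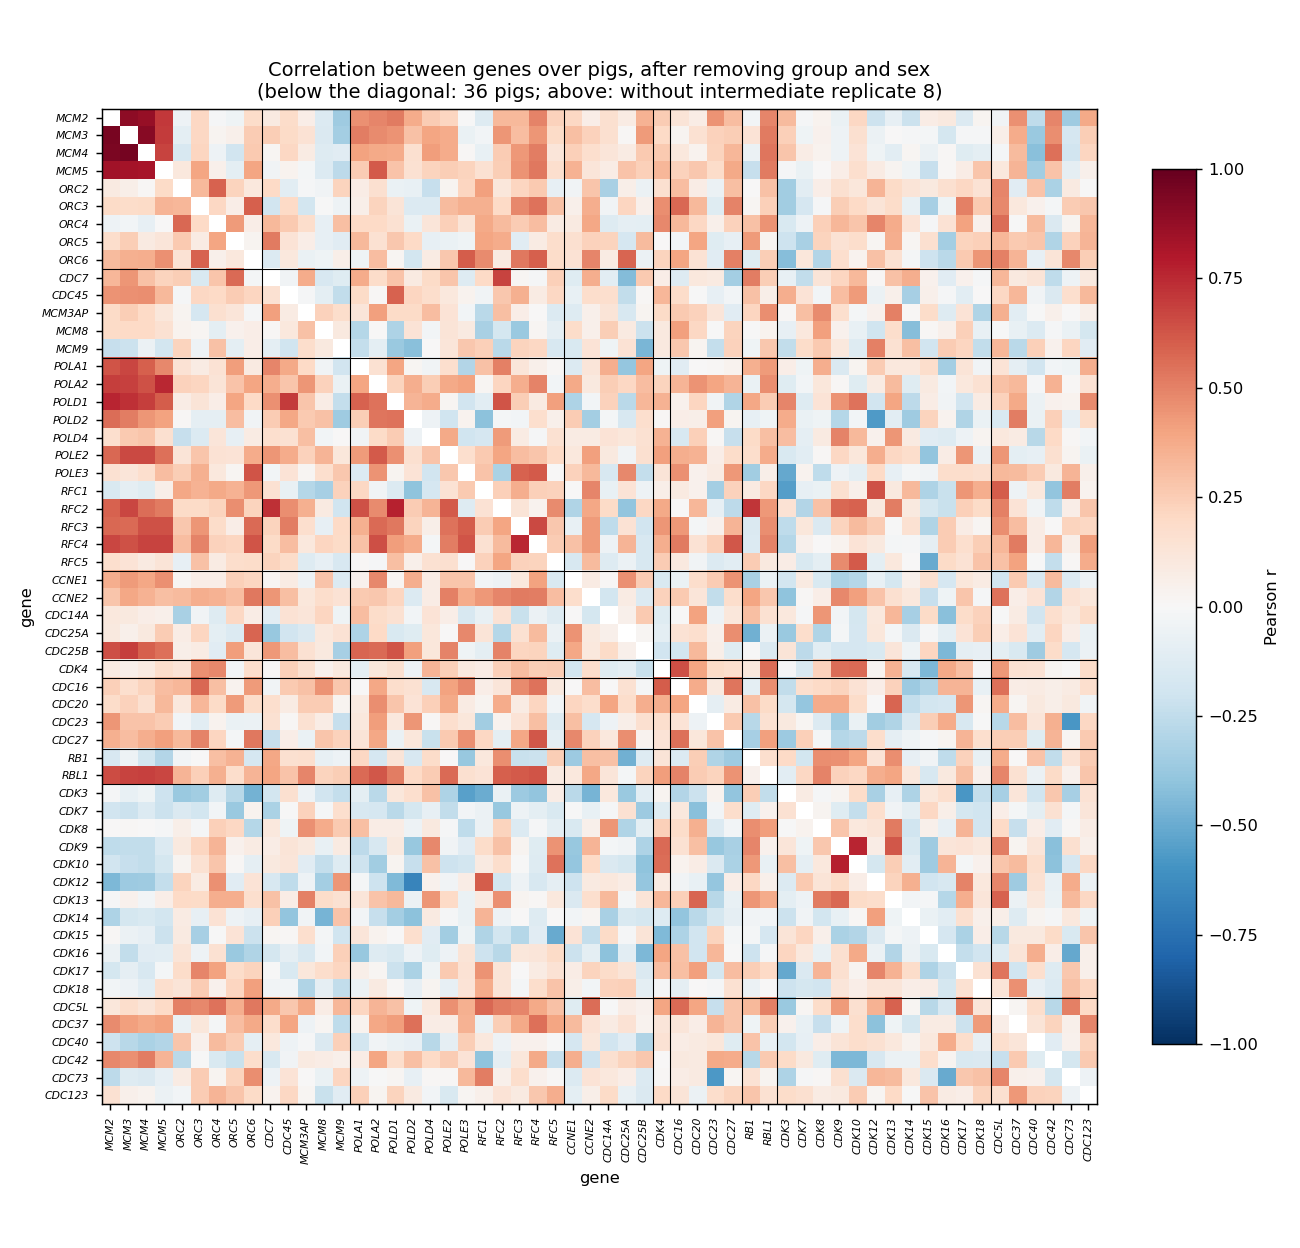
Pearson's r between the 56 genes over pigs after group and sex were removed (colour), below the diagonal for 36 pigs and above it without intermediate replicate 8. MCM2 to MCM5 form the darkest block (median r 0.888 and 0.788), and their links to the polymerase and clamp loader genes are paler above the diagonal.

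The other genes of the pathway did not separate the groups either. Of the 41 measured genes of the proliferation list (69 listed), 28 were above 0 between obese and lean pigs with a median of 0.10, 3 higher and 2 lower genes had an unadjusted p under 0.05, and 0 passed the correction, against 14.7% and 0.0408% of all genes. The count was not above the share over all genes, a single gene in each of the 3 smaller lists is too few to read, and the genes named are given as a description. RPA3, a subunit of the single-strand binding protein, was the nearest (338 ± 99.5 in lean and 450.0 ± 76.6 in obese pigs, 0.43 ± 0.12, adjusted p = 0.0855 with limma). SKP2, which marks p27 for degradation, was at -0.30 ± 0.11 and SMC4, a condensin subunit, at 0.37 ± 0.15. Of the 13 p53 targets and other inhibitors 1 had an unadjusted p under 0.05, the phosphatase CDKN3 (0.475 ± 0.22). LIN37 of the 4 DREAM and MuvB genes (-0.27 ± 0.11) and ANAPC4 of the 5 other anaphase-promoting complex genes (-0.23 ± 0.11) did so as well, with adjusted p-values of at most 0.312 for the 3 genes.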

How the data were processed

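RNA of subcutaneous fat from 36 pigs was sequenced, and the submitters' processing notes name STAR, HTSeq, DESeq and limma with Sscrofa10.2. The deposited values are log2 values per gene and pig that the authors normalised with size factors and filtered at a level of 5. The low values showed each to be log2 of (reads + 0.5) divided by (size factor + 1) times 1000000, and 99.9% or more of the recovered reads of every pig were whole within 0.1. Size factors ran from 0.796 to 1.18. Adding 1 to the size factor leaves part of the depth in the values.

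Gene symbols came from a table of gene IDs. The deposited values were fitted in limma 3.58.1 (R 4.3.3) with group and sex over all 36 pigs and an intensity trend, with Benjamini-Hochberg adjustment over 12253 genes at 0.05. The interaction came from a fit with group by sex. Differences carry SEs and normalised counts SDs. Marker scores are means of standardised values after group and sex were removed, with 100000 permutations. On simulated data the fit found 42.5% of simulated log2 changes of 0.5 and 85.5% of those of 1 (obese minus lean, 12253 genes). In each simulation 200 genes were changed, and counts were drawn independently for every gene and pig. The real comparison had 5 genes past the test and includes sibs, so these shares do not give its power.

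All genes of the rule could be named, and full values were given to those past a threshold, with the smallest p or the most extreme spread, and to selected cell cycle genes; single values of intermediate replicate 8, ORC5, RFC5 and the marker genes were chosen after their values were seen. The genes and lists were chosen with earlier results of these data known. Family could not be assigned to pigs, so p-values take sibs as independent. Levels between genes were not compared because no transcript lengths were used here.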

Additional observations from a re-analysis of the deposited data

How the results depend on the processing

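No gene of the 56 passed in any fit of the 3 group comparisons or of the trend, and CDK18 passed in every fit between the sexes. The count over all genes was less stable. For obese minus lean, 5 genes passed, against 3 with no sex term, 9 with the whole size factor, 9 with each pig's median subtracted, 12 without the intensity trend, 1 with the lowest 25% of genes removed, 17 with voom weights, 17 with lean and obese pigs alone, 2 in males alone, 21 in females alone and 1 to 292 with each pig left out in turn (292 without lean replicate 2). Leaving out pigs gave 0 to 6 genes for intermediate minus lean, 1 to 274 for the trend and 147 to 546 between the sexes. The trend (3 genes) gave 6 with the median subtracted, 5 without the intensity trend and 14 with voom weights. The interaction (1 gene) gave 0 with the whole size factor, 2 without the intensity trend and 0 to 33 with each pig left out, an alternative chosen after seeing the data. Of the 56 genes it gave 1 without the intensity trend, and 0 to 1 with each pig left out, MCM9 passing without lean replicate 2, lean replicate 3, obese replicate 7 or obese replicate 8. Without removal of group and sex 4 marker relations passed in place of 2. With the whole size factor the median r of all pairs fell from 0.108 to 0.032.

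For 32 chosen differences of single genes 1401 values were recomputed. Of these values 33 changed sign, and none of those passed the test. The obese minus lean difference of CDC123 was -0.004 with no sex term and -0.022 in females alone, and that of CDK16 was -0.109 in females alone. In males alone it was 0.063 for CDC40, 0.079 for CDC5L, -0.210 for MCM2, -0.045 for MCM3, -0.390 for MCM5, 0.238 for MCM9, 0.052 for POLE2 and 0.043 for RBL1. With each pig left out it ran from -0.023 to 0.021 for CDC123, -0.009 to 0.181 for MCM5, -0.176 to 0.020 for POLE2 and -0.105 to 0.012 for RBL1. Genes outside the 32 chosen differences were not counted, and some of them also changed sign in males or females alone. For obese minus lean, CDC25B went from 0.102 to -0.249 in males alone. In females alone CCNE2 went from 0.159 to -0.213 and POLD1 from -0.026 to 0.156. The causes of these changes of sign were not tested. The values without intermediate replicate 8 were also added after seeing the data. No paired analysis was possible because the replicate numbers only name pigs and the groups share no numbers in the labels. No promoter motif was searched because no reference sequence was used here. Genes with few reads, such as MCM5, are limited by depth.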
